A study of Mus musculus with 24 samples.

Results

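The D-type cyclins and their 2 kinase partners were followed in single haematopoietic stem cells (HSCs) of mouse bone marrow. The members were chosen by symbol as the gene entries of Ccnd1, Ccnd2 (listed together with the alias CYL2), Ccnd3, Cdk4 and Cdk6, which are 5 of the 27297 gene entries in the deposited table of unique molecular identifier (UMI) counts. The cells came from the strain -60/DR5-TA-RA-CFP, which carries a cyan fluorescent protein (CFP) reporter, and were gated as LSK, which stands for lineage-negative cells that carry Sca-1 and Kit, and as CD150+ and CD48-. All cells compared share this strain and gate, and the age of the animals and the treatment, if any, are not given in the labels. The cytometer recorded the CFP of each cell, so that 286 CFP-bright, 858 intermediate and 286 CFP-dim cells could be formed afterwards as the upper 20%, the rest and the lower 20% of each sort plate. The study's title names cell cycle status as the question, and cells were therefore also ranked by their UMIs of S phase and G2/M genes.

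D-type cyclins are the regulatory subunits that growth signals switch on in G1. They bind the catalytic subunits CDK4 or CDK6, and the complexes phosphorylate the retinoblastoma protein, which releases E2F factors to transcribe genes of DNA synthesis. INK4 proteins block the kinases. Most adult HSCs rest outside the cycle, and mouse embryos that lack all D cyclins, or both kinases, have defective blood formation.

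The record named 4 sort plates, 2, 3, 4 and 5, with 345 to 368 cells and 483734 to 563679 UMIs each. A cell held a median of 1265 UMIs (511 to 6026). The labels list 8 single-cell samples and give no map from wells to samples, so the plates were taken as repeat measurements of 1 pool of cells. All SDs, standard errors (SEs) and p-values below rest on the spread between plates and not between animals, and a stricter reading would treat the table as 1 sample without a test. All 17 genes of an HSC list were detected, among them Kit with 671 UMIs, Ly6a (Sca-1) with 90 and Slamf1 (CD150) with 41, and Cd48 had 1 UMI. Of 12 mature B, T and NK genes, 6 were at 0, among them Cd79a, Ms4a1, Cd3e and Cd3d, and the other 6 had UMIs (Cd74 515, H2-Aa 504, H2-Ab1 230, Cd79b 179, Nkg7 67 and Cd4 12). Of 5 endothelial genes Cdh5 was at 0, and Pecam1 had 124 UMIs, Emcn 23, Plvap 6 and Kdr 5.

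Ccnd2 and Cdk4 were the abundant members. Ccnd2, encoding cyclin D2, had 1615 UMIs over all 1430 cells, or 766 CPM (UMIs of the gene per 1000000 UMIs; 95% exact Poisson interval 729 to 804), and at least 1 UMI in 58.4% of cells. Cdk4, the catalytic subunit, had 1798 UMIs, or 852 CPM (813 to 893), and at least 1 UMI in 62.3% of cells. A single cell held at most 11 UMIs of Ccnd2 and 12 of Cdk4. Intervals cover counting error only. Apart from calling members abundant or rare by their UMIs, CPM of different genes are not compared here as amounts. The ratio of Ccnd2 to Cdk4 is used only for how it changes between sets of cells.

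The other members were rare. Ccnd1 (cyclin D1) had 61 UMIs in 55 cells, which is 28.9 CPM (22.1 to 37.1). Cdk6, the second kinase of the D cyclins, had 27 UMIs in 22 cells (12.8 CPM, 8.43 to 18.6), and Ccnd3 (cyclin D3) had 16 UMIs in 16 cells (7.58 CPM, 4.34 to 12.3). Of the 5 members, 2 (Ccnd2 and Cdk4) passed the filter on low counts and entered the tests.

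Of the 5 members, 3 had a promoter in the RefSeq promoter table (build GRCm38.p6), namely Ccnd3, Cdk4 and Cdk6. That of Cdk4 is shown because Cdk4 is a known target of Myc, whose family binds the E-box CACGTG, and the levels of Myc and Mycn were measured in the same cells. The window holds the 250 bases before the annotated start, chr10:127063285-127063534 on the + strand, with the E-boxes in capitals.
Cdk4 promoter: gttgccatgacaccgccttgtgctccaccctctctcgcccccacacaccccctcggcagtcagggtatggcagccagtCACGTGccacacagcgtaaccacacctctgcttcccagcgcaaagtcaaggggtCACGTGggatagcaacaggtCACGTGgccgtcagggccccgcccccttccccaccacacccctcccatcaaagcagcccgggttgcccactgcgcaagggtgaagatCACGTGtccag
CACGTG reads the same on both strands and began at positions -172, -118, -98 and -11 relative to the start of Cdk4. At least 1 CACGTG stood in 1634 of 27025 promoter windows of this length (6.05%), and at least 4 stood in 5 (0.0185%). The Cdk6 window held 1. These matches describe letters in a window and not binding.

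In CFP-bright cells Cdk4 was higher and Ccnd2 lower than in CFP-dim cells. Cdk4 had 1120.1, 921, 1101 and 1149 CPM in bright cells of plates 2, 3, 4 and 5, against 808, 754, 589 and 668 CPM in dim cells of the same plates. Every bright value lay above every dim value. The means were 1073 ± 103 CPM in bright and 705 ± 96.1 CPM in dim cells (SD, n = 4 plates each), a log2 fold change of 0.58 ± 0.12 (SE; edgeR quasi-likelihood test with Benjamini-Hochberg adjustment over 3842 genes, adjusted p = 0.000269). Ccnd2 had 494, 557, 614 and 694 CPM in bright cells of plates 2, 3, 4 and 5, against 547, 848, 799 and 1066 CPM in dim cells. The fractions overlapped across plates, because plate 2 was low in both, and within each of the 4 plates the bright value was the lower. Ccnd2 averaged 589.6 ± 85.3 CPM in bright and 815 ± 213 CPM in dim cells (SD, n = 4 plates each), and its log2 fold change was -0.48 ± 0.13 (SE, edgeR adjusted p = 0.00758).

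Both tested members were thus called, 1 in each direction, where 10.1% of all tested genes were called, 5.93% as higher and 4.14% as lower in bright cells. The median log2 fold change of all tested genes was -0.022. The Ccnd2 call ended without plate 3 (-0.43, edgeR adjusted p = 0.0760), without plate 5 (-0.41, 0.116), without the plate block (-0.49, 0.261), without the filter on low counts (-0.34, 0.155), with fractions of 30% (-0.27, 0.135) and in cells matched on UMIs (-0.28, 0.511). With the 20% of cells highest in S phase and G2/M UMIs left out, neither gene was called (Ccnd2 -0.031, edgeR adjusted p = 0.979, and Cdk4 0.41, 0.407), and matching on UMIs also ended the Cdk4 call (0.45, 0.183). Few genes at all were called in these runs, 14 of 1799 tested with those cells left out and 22 of 1236 in matched cells.

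Bright cells stood apart from intermediate cells as well. Against intermediate cells, Ccnd2 was lower in bright cells by a log2 fold change of -0.52 ± 0.11 (SE, edgeR adjusted p = 0.000462). Cdk4 was higher by 0.45 ± 0.10 (adjusted p = 0.000777), where 9.63% of tested genes were called, 5.75% as higher and 3.88% as lower. Between intermediate and dim cells neither gene passed the test, and 1 gene in all did (0.026%). The log2 fold changes, intermediate over dim, were 0.038 ± 0.12 for Ccnd2 (SE, edgeR adjusted p = 0.967) and 0.13 ± 0.12 for Cdk4 (adjusted p = 0.879).

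In 5 equal bins of CFP rank within a plate, low to high, Cdk4 averaged 705, 667, 737, 905 and 1073 CPM over the 4 plates. Ccnd2 averaged 815, 834, 885, 795 and 589.6 CPM. The Ccnd2 level stayed within the plate spread over the 4 lower bins and was lowest in the uppermost, and Cdk4 was higher in the upper 2 bins. Of the UMIs of both genes together, 53.5%, 55.7%, 55.0%, 46.8% and 35.7% were Ccnd2. This Ccnd2 share was lower only in the upper 2 bins. The share of S phase and G2/M genes in all UMIs rose at every step, at 0.555%, 0.617%, 0.664%, 0.83% and 1.49%. So did the median UMIs per cell, at 1058, 1147, 1240, 1347 and 1842.5. The part of cycle share and depth in the order across bins was not tested.

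**Figure D1:**
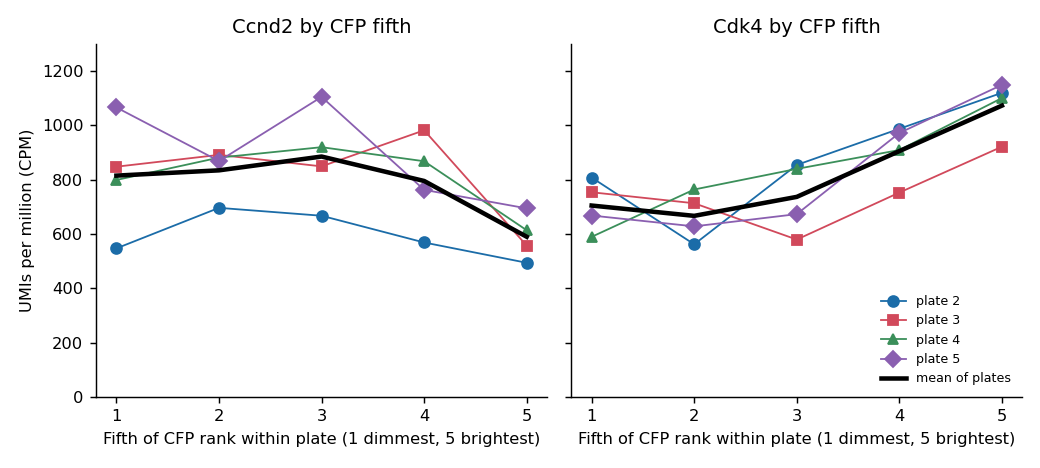
Ccnd2 and Cdk4 levels (CPM, y axis) in 5 equal bins of CFP rank within a plate, low to high on the x axis, with a thin line per plate and a thick line for the mean of 4 plates. Ccnd2 is lowest in the uppermost bin (589.6 CPM), where Cdk4 is highest (1073 CPM).

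The cells were then ranked by cycle genes. From the 1025 cells that reached 1000 UMIs, 1000 were drawn per cell, and the 20% of a plate with the most S phase and G2/M list UMIs (cycle-high, 205 cells) were set against the 50% with the fewest (cycle-low, 512 cells). The list genes were left out of the test, and no member is on a list. These sets are ranges of a score, with 89 cells within 1 UMI of the upper limit, and not cell types.

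Cycle-high cells had less Ccnd2 and more Cdk4 than cycle-low cells. Ccnd2 had 334, 604, 459 and 507 CPM in cycle-high cells of plates 2, 3, 4 and 5, against 784, 917, 1041 and 1080.4 CPM in cycle-low cells. No cycle-high value reached the lowest cycle-low value. The means were 476 ± 112 CPM in cycle-high and 956 ± 134 CPM in cycle-low cells (SD, n = 4 plates each), and the log2 fold change was -1.01 ± 0.12 (SE, edgeR adjusted p = 1.55e-10). Cdk4 had 1247, 1047, 1077 and 1176 CPM in cycle-high cells, against 691, 585, 705 and 643 CPM in cycle-low cells of the same plates. The sets did not overlap here either. Cdk4 averaged 1137 ± 91.8 CPM in cycle-high and 656 ± 54.4 CPM in cycle-low cells (SD, n = 4 plates each), with a log2 fold change of 0.78 ± 0.11 (SE, edgeR adjusted p = 7.17e-09).

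Both calls stand beside 17.1% of 3459 tested genes called, 8.99% as higher and 8.09% as lower in cycle-high cells, with a median log2 fold change of -0.015. The cells between the sets had 783 ± 196 CPM of Ccnd2 and 986 ± 150.0 CPM of Cdk4 (SD, n = 4 plates). Cycle-high cells held a median of 2260 UMIs and cycle-low cells 1372.5. In cells matched on UMIs the log2 fold changes were -0.86 for Ccnd2 (edgeR adjusted p = 0.000965) and 0.86 for Cdk4 (adjusted p = 0.000199). Both genes kept their calls in every alternative run on this comparison, 13 for each gene.

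**Figure D2:**
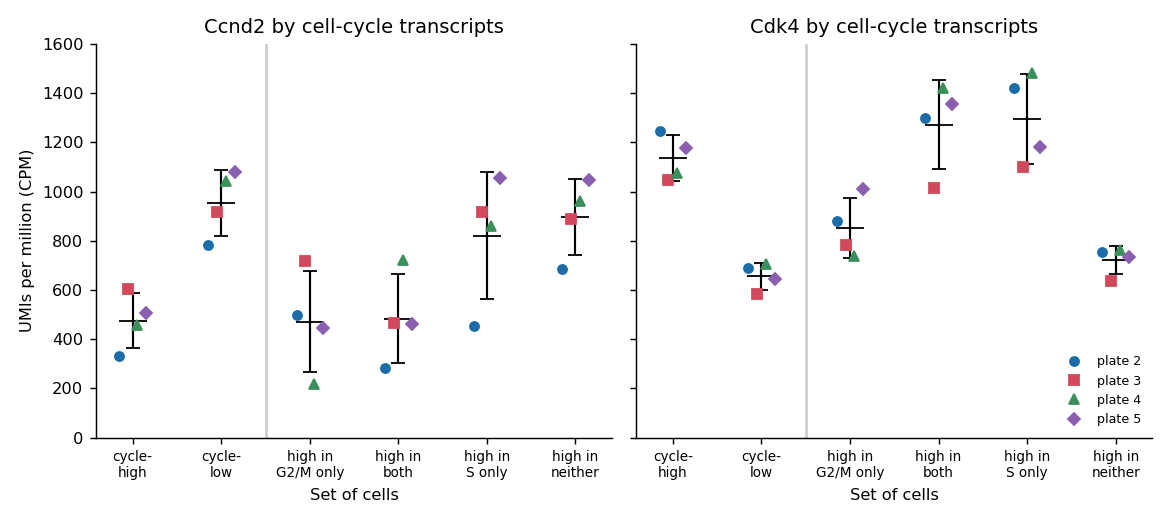
Ccnd2 and Cdk4 levels (CPM) per plate in cycle-high and cycle-low cells and in the sets by S phase and G2/M list, with the mean and SD of 4 plates. Cycle-high cells lie between 334 and 604 CPM for Ccnd2 and all 4 cycle-low values lie above them, while for Cdk4 the cycle-high values are the higher ones.

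After thinning to 1000 UMIs, Ccnd2 was detected in 37.6% of cycle-high cells (95% Wilson interval 31.2% to 44.4%) and in 55.7% of cycle-low cells (51.3% to 59.9%). Cdk4 was detected in 64.4% of cycle-high cells (57.6% to 70.6%) and in 48.6% of cycle-low cells (44.3% to 53.0%). By CFP, Ccnd2 was detected in 45.3% of bright cells (39.3% to 51.4%) and in 50.6% of dim cells (42.9% to 58.3%), so the intervals overlap. Cdk4 was detected in 64.1% of bright cells (58.0% to 69.7%) and in 50.0% of dim cells (42.3% to 57.7%). Wilson intervals count cells and do not cover the spread between plates. Over plates, Cdk4 ran from 55.7% to 76.2% in bright and from 44.1% to 55.8% in dim cells, so these ranges overlap. The cycle-high and cycle-low plate ranges did not overlap for Ccnd2 (24% to 47.3% and 48.8% to 60%) or Cdk4 (58.7% to 72% and 46.3% to 54.4%). At this depth 256 of 286 bright and 158 of 286 dim cells entered.

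Thinned to 500 UMIs, which keeps every cell of these sets, fewer pairs separated. Ccnd2 was then detected in 27.3% of cycle-high cells (21.7% to 33.8%) and in 33.0% of cycle-low cells (29.1% to 37.2%), and the intervals overlap. Cdk4 was detected in 44.4% of cycle-high cells (37.8% to 51.2%) and in 25.6% of cycle-low cells (22.0% to 29.5%), and these intervals do not overlap. Its plate ranges, 38.2% to 50% and 22.4% to 33.9%, do not overlap either. By CFP the intervals overlap for both genes, with Cdk4 in 37.1% of bright cells (31.7% to 42.8%) and 29.7% of dim cells (24.7% to 35.3%), and Ccnd2 in 26.2% of bright cells (21.5% to 31.6%) and 32.2% of dim cells (27.0% to 37.8%).

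Cells were also divided by the S phase and the G2/M list on their own, as the upper 20% of a plate on each. Cells high on the S phase list alone (121 cells) had 1295 ± 184 CPM of Cdk4 and cells high on both lists (84 cells) 1272 ± 180.0 CPM. Cells high on the G2/M list alone (121 cells) had 852 ± 121 CPM of Cdk4, and cells high on neither (699 cells) 721 ± 58.2 CPM (SD, n = 4 plates each). Cdk4 in S-only cells lay above that in cells high on neither in 4 of 4 plates, by 0.84 ± 0.12 on the log2 scale (SD).

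Ccnd2 followed another order over the same sets. It had 471 ± 206 CPM in G2/M-only cells and 483 ± 181 CPM in cells high on both lists. The values were 821 ± 257 CPM in S-only cells and 896 ± 154 CPM in cells high on neither (SD, n = 4 plates each). G2/M-only cells lay below cells high on neither in 4 of 4 plates, by -1.03 ± 0.84 (log2, SD), while S-only cells differed from them by -0.18 ± 0.29, with 2 of 4 plates higher. Flipping the signs of 4 plates in every way (an exact permutation test, two-sided) gives a smallest p of 0.125, so none of the 6 such differences could reach 0.05, and the lowest p adjusted over the 6 was 0.25.

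The same contrast was seen in the fits with 1 list. Ranked by the S phase list alone, cycle-high cells had a Ccnd2 log2 fold change of -0.46 (edgeR adjusted p = 0.000778) and a Cdk4 log2 fold change of 0.92 (adjusted p = 2.09e-17). Ranked by the G2/M list alone, an alternative chosen after seeing the data, the log2 fold changes were -1.01 for Ccnd2 (adjusted p = 3.66e-10) and 0.38 for Cdk4 (adjusted p = 0.00816). The rankings share cells, and the difference between them was not tested.

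The log2 ratio of Ccnd2 to Cdk4 UMIs put both genes into 1 value per plate. It was -1.18, -0.73, -0.84 and -0.73 in bright cells of plates 2, 3, 4 and 5, against -0.56, 0.17, 0.44 and 0.67 in dim cells. Bright cells were lower in 4 of 4 plates, by -1.05 ± 0.36 (mean and SD of the paired differences, exact permutation p = 0.125, the smallest possible). The ratio was -1.90, -0.79, -1.23 and -1.21 in cycle-high cells, against 0.18, 0.65, 0.56 and 0.75 in cycle-low cells. Cycle-high cells were lower in 4 of 4 plates, by -1.82 ± 0.28 (exact p = 0.125). With the 20% of cells highest in cycle genes left out, the bright minus dim difference was -0.41 ± 0.41, negative in 3 of 4 plates.

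**Figure D3:**
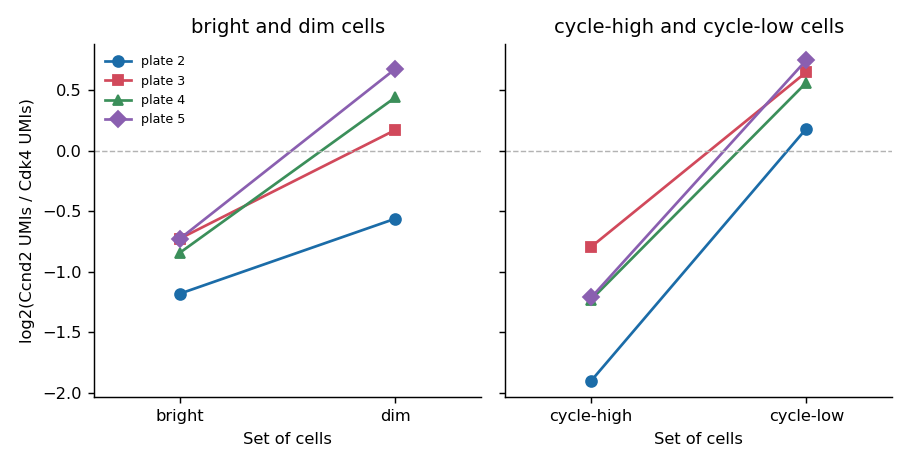
Log2 ratio of Ccnd2 to Cdk4 UMIs (y axis) in bright and dim cells and in cycle-high and cycle-low cells, with a line joining the 2 values of a plate. All 4 lines of each comparison run from a lower value in the bright or cycle-high cells to a higher one in the dim or cycle-low cells.

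CFP and cycle rank overlap in these cells, since 62.4% of cycle-high cells and 12.7% of cycle-low cells were bright. Within cycle-low cells, Ccnd2 had 980 CPM in bright cells (95% Poisson interval 801 to 1186; 65 cells) and 926 CPM in dim cells (772 to 1102; 102 cells). Cdk4 had 812 CPM in bright cycle-low cells (650 to 1001) and 729 CPM in dim cycle-low cells (593 to 887). Both pairs of intervals overlap. In cells between the cycle-high and cycle-low sets, Cdk4 had 1254 CPM in bright cells (1073 to 1457, 63 cells). Dim cells between the sets had 695 CPM of Cdk4 (514 to 919, 49 cells), so this pair of pooled intervals is separate. Plates 2, 3, 4 and 5 had 1284, 771, 1470 and 1203 CPM in these bright cells, and 582, 761, 917 and 587 CPM in these dim cells. The plate ranges thus overlap, and bright cells were higher in each plate, in plate 3 only narrowly. Ccnd2 there had 752 CPM in bright cells (613 to 913) and 879 CPM in dim cells (674 to 1127), which overlap. Within bright cells, Ccnd2 had 421 CPM in cycle-high cells (356 to 495; 128 cells), against the 980 CPM in cycle-low cells. Cdk4 had 1081 CPM in bright cycle-high cells (975 to 1196), against the 812 CPM in bright cycle-low cells (650 to 1001), so these intervals overlap. Within intermediate cells, Ccnd2 had 643 CPM in cycle-high cells (517 to 790; 70 cells) and 962 CPM in cycle-low cells (879 to 1050; 345 cells). Cdk4 had 1286 CPM in intermediate cycle-high cells (1105 to 1488) and 599 CPM in intermediate cycle-low cells (534 to 669). Dim cells held 7 cycle-high cells with 5 Ccnd2 UMIs, too few to read. In the 50% of cells lowest in cycle genes, chosen after seeing the data, the bright over dim log2 fold change was 0.22 for Ccnd2 (edgeR adjusted p = 0.868) and 0.38 for Cdk4 (adjusted p = 0.723), and 0 of all tested genes were called (86 at an unadjusted p under 0.05).

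The deposited record also gives each cell a whole number from 1 to 10, the map group, with no meaning stated. It may come from a clustering of these UMIs, so its groups are described and not tested. Group 1 holds 10 cells and is left aside. Groups 6 and 10, with 33 and 42 cells, fall under the 50 cells set as a minimum and are given because the members were to be followed across groups 2 to 10.

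Ccnd2 had its highest levels pooled over plates in groups 2 (973 CPM, 95% Poisson interval 806 to 1166), 7 (960 CPM, 775 to 1176), 5 (917 CPM, 819 to 1023), 6 (907 CPM, 628 to 1268), 3 (870.3 CPM, 741 to 1016) and 4 (858 CPM, 775 to 949). Lower levels followed in groups 8 (663 CPM, 575 to 760), 9 (577 CPM, 510.0 to 650.1) and 10 (296 CPM, 188 to 444). Along this order the plate ranges of all neighbours overlap, and the Poisson intervals separate neighbours between groups 4 and 8 and between groups 9 and 10. Group 10 had 4, 2, 6 and 11 Ccnd2 UMIs in plates 2, 3, 4 and 5.

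Cdk4 followed another order. It was highest in groups 9 (1205 CPM, 1108 to 1309), 8 (1084 CPM, 971 to 1206) and 6 (1014 CPM, 717 to 1392), followed by group 10 (759 CPM, 578 to 979). Groups 3, 5, 7, 2 and 4 had 691, 689.7, 681, 635 and 619.8 CPM. No neighbours in this order separate, by plate range or by Poisson interval, but groups further apart do. Groups 8 and 9 lay above groups 3, 5, 2 and 4 by both measures. Their lowest plate values were 862 and 1137 CPM, against highest values of 790, 706, 729 and 783 CPM. The upper Poisson limits of groups 3, 5, 2 and 4 were 822, 783, 794 and 697 CPM. Group 7 lay below groups 8 and 9 by Poisson interval only (upper limit 867 CPM), with plate values up to 1146 CPM. Groups 8 and 9 were high in Cdk4 and low in Ccnd2, while group 10 was lowest in Ccnd2 and the fourth in Cdk4, and group 4 was lowest in Cdk4 and the sixth in Ccnd2.

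Pooled levels weight the plates by their cells, and plates differ in Ccnd2 and in their share of each group. With the 4 plates weighted equally, Ccnd2 averaged 970.1 ± 224 CPM in group 7, 903 ± 50.9 CPM in group 6 and 878 ± 256 CPM in group 2 (SD, n = 4 plates), so group 7 and not group 2 came first. Groups 4, 5 and 3 had 860.2, 859 and 843 CPM, and groups 8, 9 and 10 were again the lowest, with 633, 580.4 and 290.1 CPM. For Cdk4 by plate means, group 9 (1208 ± 64.2 CPM) was followed by group 6 (1079.9 ± 291 CPM) and group 8 (1047 ± 160.4 CPM), and group 2 (579 ± 158 CPM) was the lowest in place of group 4 (624 ± 117 CPM). The order within groups 2 to 7 for Ccnd2, and between groups 6 and 8 and groups 2 and 4 for Cdk4, thus depends on the weighting.

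The share of Ccnd2 in the UMIs of both genes was 60.5%, 55.7%, 58.1%, 57.1%, 47.2% and 58.5% in groups 2 to 7, in that order. It was 37.9% in group 8, 32.4% in group 9 and 28.0% in group 10. Groups 8, 9 and 10 were also those richest in cycle genes, which made up 1.13%, 1.57% and 2.34% of their UMIs, against 0.466% to 0.646% in groups 2 to 7. They held the most bright cells, with 30.7%, 56.9% and 52.4%, against 6.97% to 18.2%. Group 10 differed from groups 8 and 9 in the kind of cycle gene: G2/M genes made up 2.07% of its UMIs and S phase genes 0.269%, while S phase genes made up 0.703% in group 8 and 0.853% in group 9. Group 10, with low Ccnd2 and middling Cdk4, also had the highest G2/M share, and a link between these was not tested.

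**Figure D4:**
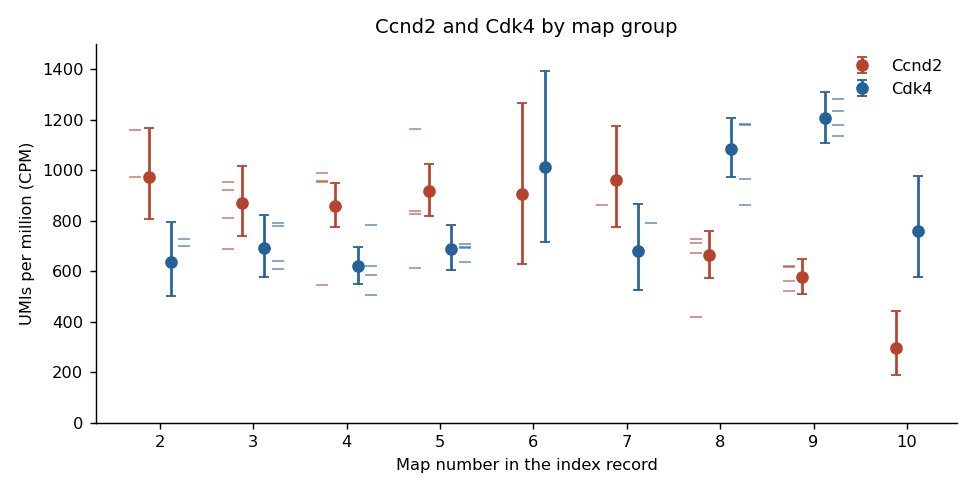
Pooled levels (CPM, y axis) of Ccnd2 and Cdk4 in map groups 2 to 10 (x axis), with 95% exact Poisson intervals; short dashes give plates with at least 20 cells of the group. Groups 8 and 9 have Cdk4 above 1000 CPM and Ccnd2 below 700 CPM, and group 10 has the lowest Ccnd2 (296 CPM).

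Sort plates differed in Ccnd2. Over all cells it had 583, 802, 792 and 862 CPM in plates 2, 3, 4 and 5, and plate 2 stood apart. Cdk4 had 899, 760.3, 883 and 873 CPM, with plate 3 the lowest. Plate 2 held 75 of the 188 cells of group 9 and 52 of the 86 cells of group 7. Within group 4, which had 64 to 94 cells on every plate, Ccnd2 in plate 2 was 546 CPM and the highest plate value was 988 CPM.

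Detection of Ccnd2 in a cell differed little with detection of Cdk4. After thinning to 1000 UMIs, Ccnd2 was detected in 51.4% of the 560 cells with a Cdk4 UMI and in 49.5% of the 465 cells without. The difference per plate was -4.77, -0.84, 12.1 and 4.94 percentage points in plates 2, 3, 4 and 5, with 2 of 4 above 0. The mean of 2.86 ± 7.34 points (SD) is smaller than the spread between plates. Thinned to 500 UMIs, with all 1430 cells, the mean was 1.57 ± 1.49 points (SD), from 0 to 3.35 with 3 of 4 plates above 0. There the mean was not smaller than the spread.

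Over 23 libraries of 1 plate and 1 map group with at least 20 cells, log2(CPM + 10) was centred within plate and correlated between genes. These points share plates and differ in depth and cycle share, so the values are a description. Ccnd2 and Cdk4 had a Pearson r of -0.75. The genes most like Ccnd2 among 2194 were 2410006H16Rik;Snord65 (r 0.84), Pdzk1ip1 (0.82), which is on the HSC list, Txnip, an inhibitor of glucose uptake (0.81), Krt18, a keratin (0.80), and Tmem50a (0.77). The genes most like Cdk4 were the tubulin genes Tuba1b (r 0.93) and Tubb5 (0.91), the helicase subunit gene Mcm6 (0.90), which is on the S phase list, the DNA ligase gene Lig1 (0.89) and Dctpp1, a nucleotide pyrophosphatase gene (0.89).

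The intervals of the rare members overlapped between bright and dim and between cycle-high and cycle-low cells. Ccnd1 had 18 UMIs in bright cells (29.2 CPM, 95% Poisson interval 17.3 to 46.2) and 7 in dim cells (21.9 CPM, 8.81 to 45.1). Cdk6 had 10 UMIs in bright cells (16.2 CPM) and 4 in dim cells (12.5 CPM), and Ccnd3 had 6 in bright cells (9.74 CPM) and 3 in dim cells (9.39 CPM). In cycle-high against cycle-low cells the counts were 11 and 23 UMIs for Ccnd1 (22.0 and 30.2 CPM). Cdk6 had 6 UMIs in cycle-high and 12 in cycle-low cells, and Ccnd3 had 3 and 9. Differences of the size seen for Ccnd2 and Cdk4 were not detectable from these counts.

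The genes around the D cyclin kinases were taken from 8 lists with 39 genes. Between bright and dim cells 16 of them were tested, 1 rose in bright cells and 0 fell, where 5.93% of all tested genes were called higher and 4.14% lower, so the count is near that background. Of the 16, 6 had an unadjusted p under 0.05, against 848 of all 3842 genes. The median log2 fold change was 0.18 over the 16 and -0.022 over all tested genes. E2f8, a repressor of the E2F family, rose, with 102 ± 18.4 CPM in bright and 21.7 ± 27.6 CPM in dim cells (SD, n = 4 plates each), a log2 fold change of 2.16 ± 0.56 (SE, edgeR adjusted p = 0.00393). That call ended without plate 4 (1.67, 0.0883) and narrowly without the plate block (2.18, 0.0505). E2f8 was not tested between cycle-high and cycle-low cells, where it had 123 ± 17.8 CPM and 13.3 ± 3.75 CPM (SD, n = 4 plates each). It also had no fit with the cells highest in cycle genes left out or in cells matched on UMIs. The part of cycle share and depth in the E2f8 call was thus not tested. The activator E2f3 had a log2 fold change of 1.49 ± 0.53 (adjusted p = 0.0567), and Rbl1 (p107), a relative of the retinoblastoma protein, one of 0.94 ± 0.47 (adjusted p = 0.220).

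Between cycle-high and cycle-low cells 15 of the 39 genes were tested, 1 rose and 1 fell, where 8.99% of all tested genes were called higher and 8.09% lower, so these counts too are near the background. Their median log2 fold change was -0.11, against -0.015 over all tested genes. Mycn, a transcription factor of the Myc family, fell, with 78.0 ± 15.3 CPM in cycle-high and 235 ± 44.1 CPM in cycle-low cells (SD, n = 4 plates each), a log2 fold change of -1.61 ± 0.25 (SE, edgeR adjusted p = 3.38e-07). E2f3 rose, with 95.5 ± 42.9 CPM in cycle-high and 39.0 ± 25.1 CPM in cycle-low cells (SD, n = 4 plates each), by 1.24 ± 0.38 (SE, edgeR adjusted p = 0.0140). The E2f3 call ended without plate 4 (1.06, 0.0796) and without plate 5 (0.91, 0.284). Myc had 330.3 ± 74.9 CPM in cycle-high and 353 ± 70.7 CPM in cycle-low cells, a log2 fold change of -0.11 ± 0.16 (SE, edgeR adjusted p = 0.709), and no difference was detected. Between bright and dim cells Mycn had a log2 fold change of -0.62 ± 0.27 (adjusted p = 0.138) and Myc 0.042 ± 0.18 (adjusted p = 0.931).

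By role, the 4 tested genes of the CDK-activating kinase and of the CDK chaperone did not pass either test, and Cdc37, the chaperone that loads CDK4, had a log2 fold change of -0.021 ± 0.16 in bright over dim cells (edgeR adjusted p = 0.962). Ccnh, the cyclin of the activating kinase, had 0.77 ± 0.34 (adjusted p = 0.138), and Cdk7, its kinase, had -0.51 ± 0.41 (adjusted p = 0.519). In cycle-high over cycle-low cells Ccnh had 0.62 ± 0.29 (adjusted p = 0.133) and Cdk7 -0.94 ± 0.39 (adjusted p = 0.0889). In bright over dim cells Ddb1, an adaptor of the ligase that degrades D cyclins, had 0.33 ± 0.17 (adjusted p = 0.235). Stat5a, a transcription factor downstream of cytokine receptors, had -0.54 ± 0.22 (adjusted p = 0.103). None of the 7 INK4 and CIP/KIP inhibitor genes passed the filter on low counts.

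**Figure D5:**
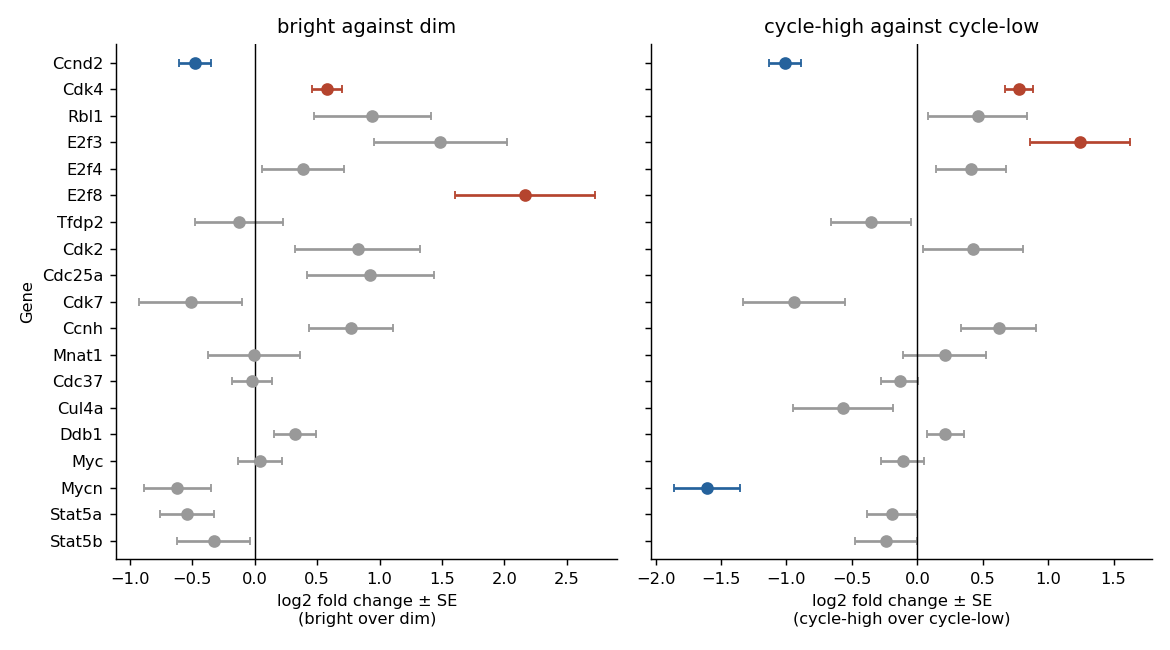
Log2 fold changes with SE of the 2 tested members and the tested genes of the pathway lists, for bright over dim and for cycle-high over cycle-low cells; red marks genes called higher, blue genes called lower, grey genes that did not pass, and a gene without a point was not tested. Cdk4 lies above 0 and Ccnd2 below 0 in both comparisons, and of the other genes E2f8 (2.16, bright over dim), E2f3 (1.24) and Mycn (-1.61, both cycle-high over cycle-low) passed the test.

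Some marker sums differed in the same comparisons, and others overlapped. Single genes weigh heavily in them, with 4080 UMIs of Ifitm1 in the HSC list and 5743 of Car2 in the erythroid list. The 17 HSC genes summed to 3117 to 3918 CPM per plate in bright cells and 3990 to 7347 CPM in dim cells, and to 2635 to 3294 CPM in cycle-high and 3628 to 7136 CPM in cycle-low cells. The 9 erythroid genes in the table summed to 2468 to 3829 CPM in cycle-high and 4325 to 7378 CPM in cycle-low cells. The 12 mature B, T and NK genes, of which 6 were at 0, summed to 309 to 509 CPM in cycle-high and 679 to 952 CPM in cycle-low cells. The 7 multipotent progenitor genes, which include Mycn, summed to 375 to 632 CPM in cycle-high and 760.3 to 808 CPM in cycle-low cells. Between bright and dim cells the erythroid sums overlapped (2454 to 4688 and 3393 to 7886 CPM). So did those of the B, T and NK genes (436 to 776 and 671 to 1100 CPM) and the multipotent progenitor genes (513 to 630 and 597 to 938 CPM). The megakaryocyte sums (8 genes) were 624 to 852 CPM in cycle-high and 546 to 854 CPM in cycle-low cells, and the myeloid progenitor sums (7 genes) were 1694 to 2573 CPM and 2021 to 2711 CPM in the same sets. The neutrophil genes reached at most 35.3 CPM in a CFP fraction of a plate, the mast cell genes 5.83 CPM and the endothelial genes 170.3 CPM. The part of these cells or transcripts in the Ccnd2 and Cdk4 values was not tested.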

How the data were processed

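The authors deposited a table of whole, unnormalized UMI counts (genes by wells) and an index-sort record whose CFP value is the log10 of a channel number, per the values. Per the labels' protocols, index-sorted single cells were lysed in 384-well plates, reverse transcribed with barcoded primers and pooled. Per the submitters' processing notes, the series used the builds mm9 and mm10 and the tools bcl2fastq 2.15.0.4, Bismark 0.19.0, STAR, featureCounts, cutadapt and DESeq2, whose roles are not named. No source used here says how reads became UMI counts or whether strand was used. Bulk and bisulphite samples were not analysed here.

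The members and gene lists were chosen with earlier results of these data known. All 1430 recorded wells had at least 500 UMIs and were used. Doublets were not called, since each well received 1 sorted cell. UMIs were summed per plate and set (76354 to 84920 UMIs in dim, 135701 to 171392 in bright libraries) and tested by the quasi-likelihood F test of edgeR 4.0.16 in R 4.3.3, after filterByExpr and TMM scaling, with the plate as a block and a Benjamini-Hochberg threshold of 0.05 and the 3 CFP fractions in 1 fit. The plate block comes from the record, which names the plate of each cell, so both sets of a plate share a sort. Residual degrees of freedom were 6 for CFP and 3 for the cycle fit, with prior degrees of freedom of 93.68 and 81.46, so that the p-values lean on the variability of the other genes. The design assumed batches as replicates, and the plates stood in for them. The S phase and G2/M lists had 43 and 53 genes in the table. Single values were tested by exact two-sided sign-flip permutation over plates. Genes named are the 5 members, the members of the pathway lists that passed a test, and the 5 genes most like Ccnd2 and Cdk4; other pathway genes that are named were chosen after their values were seen. Alternatives covered scaling (DESeq2 1.42.0 included), filter, block, each plate left out, fraction size, depth matching and cycle score. The edgeR scripts were tested on simulated data. Figures and permutations used Python 3.11.15.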

Additional observations from a re-analysis of the deposited data

Results flagged for a closer look

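The Ccnd2 level of plate 2 lay far from the other 3 plates in 3 sets of cells: 639.1 CPM in intermediate cells, 545.5 CPM in map group 4 and 696.2 CPM in bin 2 of 5 of CFP rank. These are 3 of 46 gene and set combinations examined over 4 plates by Dixon's test, and chance flags about 1 in 20. The 3 sets share cells, so they are not independent.

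Ccnd2 and Cdk4 UMIs also stood in the 106 wells without an index record, which hold 25068 UMIs in all and were used in no comparison. Ccnd2 had 14 UMIs there (558 CPM, 95% Poisson interval 305 to 937) and Cdk4 had 21 (838 CPM, 519 to 1281), above the 3 UMIs that a count of 0 allows. The intervals hold the levels of the recorded cells (766 and 852 CPM).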

How the results depend on the processing

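Between cycle-high and cycle-low cells, Ccnd2 and Cdk4 kept direction and call in all 13 alternatives each. Leaving out 1 plate gave log2 fold changes of -1.19 to -0.97 for Ccnd2 and 0.74 to 0.82 for Cdk4. The number of genes called in that comparison, 591 in the main fit, was 188 with DESeq2, 367 against the lowest 20%, 142 in cells matched on UMIs, 197 with no replicate block, 342 when ranked by the G2/M list alone (chosen after seeing the data) and 385 to 510.0 with 1 plate left out.

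Between bright and dim cells, 387 genes were called, against 214 with DESeq2, 123 with no replicate block, 22 in cells matched on UMIs, 14 with the 20% of cells highest in cycle genes left out, 0 in the 50% lowest (chosen after seeing the data; fewer cells and genes enter) and 245 to 351 with 1 plate left out. Ccnd2 lost its call without the filter (-0.34), without the replicate block (-0.49), with fractions of 30% (-0.27), in matched cells (-0.28) and with cycling cells left out (-0.031), and turned to 0.22 in the 50% lowest in cycle genes; with 1 plate left out it ran from -0.56 to -0.41. Cdk4 lost its call in matched cells (0.45), with cycling cells left out (0.41) and in the 50% lowest (0.38), and ran from 0.50 to 0.69 with 1 plate left out. The cause was not tested. Without the filter the median log2 fold change of all genes was 0.078 for bright over dim and -0.16 for cycle-high over cycle-low, so fold changes there are relative to that shift. The ratio of Ccnd2 to Cdk4 kept the sign of its mean in all alternatives, but in the 50% of cells lowest in cycle genes the bright minus dim difference was -0.17 ± 0.51, with 2 of 4 plates negative, against -1.05. E2f3 lost its call in 5 of 10 alternatives, the plate block left out and DESeq2 among them. Few UMIs limit Ccnd1, Ccnd3 and Cdk6.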

Other observations

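Inhibitors of the cyclin-dependent kinases were too rare to test, and their values are given as a description. Cdkn2c, encoding the INK4 protein p18, had 56 UMIs in all, with 53.6 ± 19.8 CPM in bright and 12.7 ± 10.7 CPM in dim cells, and 57.0 ± 23.6 CPM in cycle-high and 11.6 ± 10.5 CPM in cycle-low cells (SD, n = 4 plates each). Cdkn1c (p57), a CIP/KIP inhibitor, had 112 UMIs, with 51.3 ± 9.89 CPM in bright and 36.7 ± 24.7 CPM in dim cells, and 35.8 ± 23.9 CPM in cycle-high and 78.1 ± 37.5 CPM in cycle-low cells. Cdkn1b (p27) had 63 UMIs, with 21.8 ± 16.5 CPM in bright and 37.4 ± 26.2 CPM in dim cells, and 13.9 ± 6.92 CPM in cycle-high and 36.8 ± 20.8 CPM in cycle-low cells. Cdkn1a (p21) had 14 UMIs, Cdkn2d 1 UMI, and Cdkn2a and Cdkn2b had 0 UMIs in the 1430 cells.

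Activating E2F genes that the filter also left out were E2f1, with 84.4 ± 40.4 CPM in bright and 28.5 ± 25.5 CPM in dim cells, and E2f2, with 27.7 ± 3.61 CPM in bright cells and 0 UMIs in dim cells. Over all cells E2f1 had 106 UMIs and E2f2 only 24. Dim cells held 319590 UMIs in total and bright cells 616011, and 3 UMIs of a gene in dim cells would be 9.39 CPM. The 0 therefore does not show that E2f2 is absent there.

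Ccnd1 had 1 UMI in cells high on the G2/M list alone (3.99 CPM, 95% Poisson interval 0.101 to 22.2) and 11 UMIs in cells high on the S phase list alone (44.0 CPM, 22.0 to 78.7), and these intervals overlap narrowly. Cells high on neither list had 36 Ccnd1 UMIs (33.8 CPM, 23.7 to 46.8), an interval that lies above that of the G2/M-only cells. The sets were picked after the values were seen, the G2/M-only value rests on 1 UMI, and no test was run.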
